A study of Mus musculus with 12 samples.

Results

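The nuclear-encoded subunits of the respiratory chain and of ATP synthase were followed through the ileum of mice on 4 diets. They are 79 of the 44205 genes in the deposited expression table, chosen by gene name alone: names that begin with Nduf followed by a, b, c, s or v and a digit (complex I, 37 genes), with Uqcr (complex III, 8 genes), with Cox and a digit of 4 to 8 (complex IV, 17 genes) or with Atp5 (complex V, 17 genes), less 6 pseudogene entries. Ileal RNA was sequenced from 12 C57BL/6 mice, 3 per group, all 16 weeks old and on their diet for 10 weeks from the age of 6 weeks. The groups were HF_Sugar (a diet with 60% of its energy from fat, and a 23% w/v sugar drink), called the Western diet by the study, HF (the same fat diet with plain water), NF_Sugar (normal-fat diet with the sugar drink) and NF (normal-fat diet with plain water), the study's normal diet. All mice were of this strain, and the labels name no transgene or deletion. Expression was in RPKM, reads per kilobase of exon and per M reads. Of the 79 genes, 77 reached 0.5 RPKM in at least 3 libraries, the level needed for a test, while Cox6a2 and Cox8c did not. The names do not match the biology in every case: Atp5s (coupling factor B) and Atp5sl are no subunits of ATP synthase, Cox7a2l joins complexes into supercomplexes, Ndufa4 is now placed with complex IV, and the rule leaves out Ndufab1 and all of complex II.

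Complex I takes electrons from NADH and passes them to ubiquinone, complex III hands them on to cytochrome c, and complex IV delivers them to oxygen. The protons moved on the way drive ATP synthase, complex V. The catalytic cores of complexes I, III and IV are partly encoded by mitochondrial DNA, whereas the accessory subunits, many of them very small proteins, are encoded in the nucleus, and absorptive enterocytes of the ileum depend on this pathway for the transport of nutrients and bile acids.

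As worked out from the RPKM, libraries held 15.3 to 39.0 M reads, of which 11.8 to 30.3 M fell in genes with a unique GENCODE match. The first principal component of all tested genes other than these 77 held 39.9% of the variance and set 4 libraries, 1 from each group, apart from the other 8: HF_Sugar replicate 2, HF replicate 2, NF_Sugar replicate 1 and NF replicate 2. Reads in genes with such a match made 73.1% to 73.7% of the total in those 4 libraries and 76.9% to 81.2% in the other 8. Reads of the other rows are not counted in these shares. Markers of ileal enterocytes were abundant, with Fabp6, the ileal bile acid binding protein, at 2415 to 9713 RPKM and the ileal bile acid transporter Slc10a2 at 64.4 to 123 RPKM. Smooth muscle of the gut wall was also present (Acta2 at 122 to 311 RPKM). The brown fat marker Ucp1 reached at most 0.101 RPKM. Of 11 striated muscle markers, Acta1 was at 6.47 to 21.3 RPKM, Ckm at 1.60 to 5.28 and Actc1 at 0.878 to 3.89, and the other 8, Mb and the heavy chains Myh6 and Myh7 among them, stayed below 1 RPKM. In such bulk tissue, fewer cells of a type and less RNA per cell cannot be told apart.

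Cox7a1 had the largest SD of log2(RPKM + 1) over the 12 libraries of all tested members (0.84), although the fold between its highest and lowest library (7.28) was exceeded by that of the rare Cox8b (15.6), so its coding sequence is shown with those of its partners. Cox7a1 is the heart and skeletal muscle form of a small complex IV subunit, Cox7a2 is the form used in most tissues, and Cox7a2l is their supercomplex-forming relative, of which C57BL/6 strains are known to carry a short allele. The sequences come from the GENCODE transcripts of build GRCm38, with the stop codon, and the genes lie at chr7:30184144-30186078 (plus strand), chr9:79755361-79759878 (minus strand) and chr17:83501918-83517330 (minus strand). Of Cox7a2l, the last 240 bases are shown. Capitals mark the longest run of bases shared by Cox7a1 and Cox7a2 and, in Cox7a2l, the longest run shared with Cox7a2.
Cox7a1: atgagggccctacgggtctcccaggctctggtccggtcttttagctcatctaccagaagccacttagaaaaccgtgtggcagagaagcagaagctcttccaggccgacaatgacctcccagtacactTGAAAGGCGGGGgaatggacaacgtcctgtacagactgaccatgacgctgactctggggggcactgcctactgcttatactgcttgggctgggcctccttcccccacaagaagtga
Cox7a2: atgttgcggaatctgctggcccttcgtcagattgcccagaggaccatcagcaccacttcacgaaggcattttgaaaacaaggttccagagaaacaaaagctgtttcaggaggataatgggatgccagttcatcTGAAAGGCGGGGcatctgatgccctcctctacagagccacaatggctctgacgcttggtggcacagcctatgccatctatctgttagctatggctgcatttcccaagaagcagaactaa
Cox7a2l: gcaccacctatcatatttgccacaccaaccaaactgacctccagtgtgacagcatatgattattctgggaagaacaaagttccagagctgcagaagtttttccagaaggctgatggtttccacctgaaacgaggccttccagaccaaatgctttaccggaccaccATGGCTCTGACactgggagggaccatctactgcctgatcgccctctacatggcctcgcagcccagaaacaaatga
The 3 open reading frames are 243, 252 and 336 bases long. In the best local alignment Cox7a1 and Cox7a2 were identical at 130 of 198 aligned bases (65.7%), with a longest shared run of 12 bases, and Cox7a2l matched Cox7a2 at 78 of 116 bases (67.2%), with a run of 11.

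Genes of the respiratory chain are known targets of NRF1, GABPA, YY1 and the estrogen-related receptors, so their promoters were searched on both strands for 1 exact word for each factor. RefSeq promoters of 300 bases (250 before to 50 after the start, build GRCm38.p6) were matched for 62 members. The NRF1 word, the palindrome in capitals in the sequences shown, was found in 5 of them (8.06%), in 0.977% of all 27025 promoters and in 1.94% of the 9816 promoters of other tested genes. The 4 members whose NRF1 word lies upstream of the start are shown, with 30 bases on either side and the word in capitals.
Atp5g2 (chr15:102671050-102671119, minus strand): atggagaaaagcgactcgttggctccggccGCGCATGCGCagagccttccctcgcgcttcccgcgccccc
Atp5k (chr5:108434410-108434479, minus strand): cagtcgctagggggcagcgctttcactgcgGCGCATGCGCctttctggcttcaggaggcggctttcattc
Cox6a1 (chr5:115349081-115349150, minus strand): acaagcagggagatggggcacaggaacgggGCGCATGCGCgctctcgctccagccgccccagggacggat
Ndufa11 (chr17:56717672-56717741, plus strand): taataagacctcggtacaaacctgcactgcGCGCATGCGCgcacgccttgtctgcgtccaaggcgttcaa
The fifth match, in Uqcrc1, lies at or after the start. The ETS word CCGGAAG, bound by GABPA, stood in 13 members (21.0%) against 17.8% of other tested genes and 9.12% of all promoters. For the YY1 word AAGATGGCG the numbers were 6 members (9.68%), 3.17% and 1.49%, and for the estrogen-related receptor word TCAAGGTCA 1 member (1.61%), 0.255% and 0.407%. No word contains another, and Atp5k and Cox6a1 held both the NRF1 and the ETS word. These are matches of letters and not binding sites.

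Respiratory chain genes were among the abundant transcripts of the ileum. The median of the 79 genes' mean levels was 40.7 RPKM, against 3.33 RPKM over all tested genes, and together they took 1.06% to 1.65% of the summed RPKM of a library. Means of at least 100 RPKM were reached by 15 genes, and 7 stayed below 5 RPKM. In complex I the accessory subunit Ndufa6 was highest, at 124 to 196 RPKM over the 12 libraries (mean 157). Core subunits of the complex were lower and spread widely. Ndufv1, the flavin subunit that accepts electrons from NADH, averaged 59.7 RPKM. The iron-sulfur subunits Ndufs7, Ndufs8 and Ndufv2 averaged 46.4, 34.2 and 14.6 RPKM, and Ndufs3 and Ndufs1 9.93 and 6.83 RPKM. The lowest complex I gene was Ndufa4l2, a paralog of Ndufa4 known to be induced by low oxygen, with a mean of 0.700 RPKM.

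The 8 complex III genes all lay between 55.6 RPKM (Uqcrc2, a core protein) and 239 RPKM (Uqcr10, a small subunit) on average. Uqcrfs1, the Rieske iron-sulfur protein that carries electrons to cytochrome c1, was among the 6 tested members with the smallest spread, at 94.5 to 132 RPKM. Complex IV held the most abundant genes of all, Cox6a1 (mean 707, range 402 to 971 RPKM), Cox8a (mean 620.0 RPKM) and Cox4i1 (mean 449.8 RPKM), and also the rarest, Cox8c, a testis form that was above 0 in 2 of 12 libraries (0.108 RPKM in HF replicate 3 and 0.143 in NF_Sugar replicate 3). In complex V the beta and alpha subunits of the F1 head, Atp5b and Atp5a1, averaged 263 and 274 RPKM. The gamma subunit of the stalk, Atp5c1, averaged 75.2, the delta subunit Atp5d 183 and the epsilon subunit Atp5e 134 RPKM. The peripheral stalk genes Atp5h, Atp5o, Atp5j and Atp5f1 lay lower, at 43.5, 34.8, 32.4 and 26.7 RPKM.

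**Figure D1:**
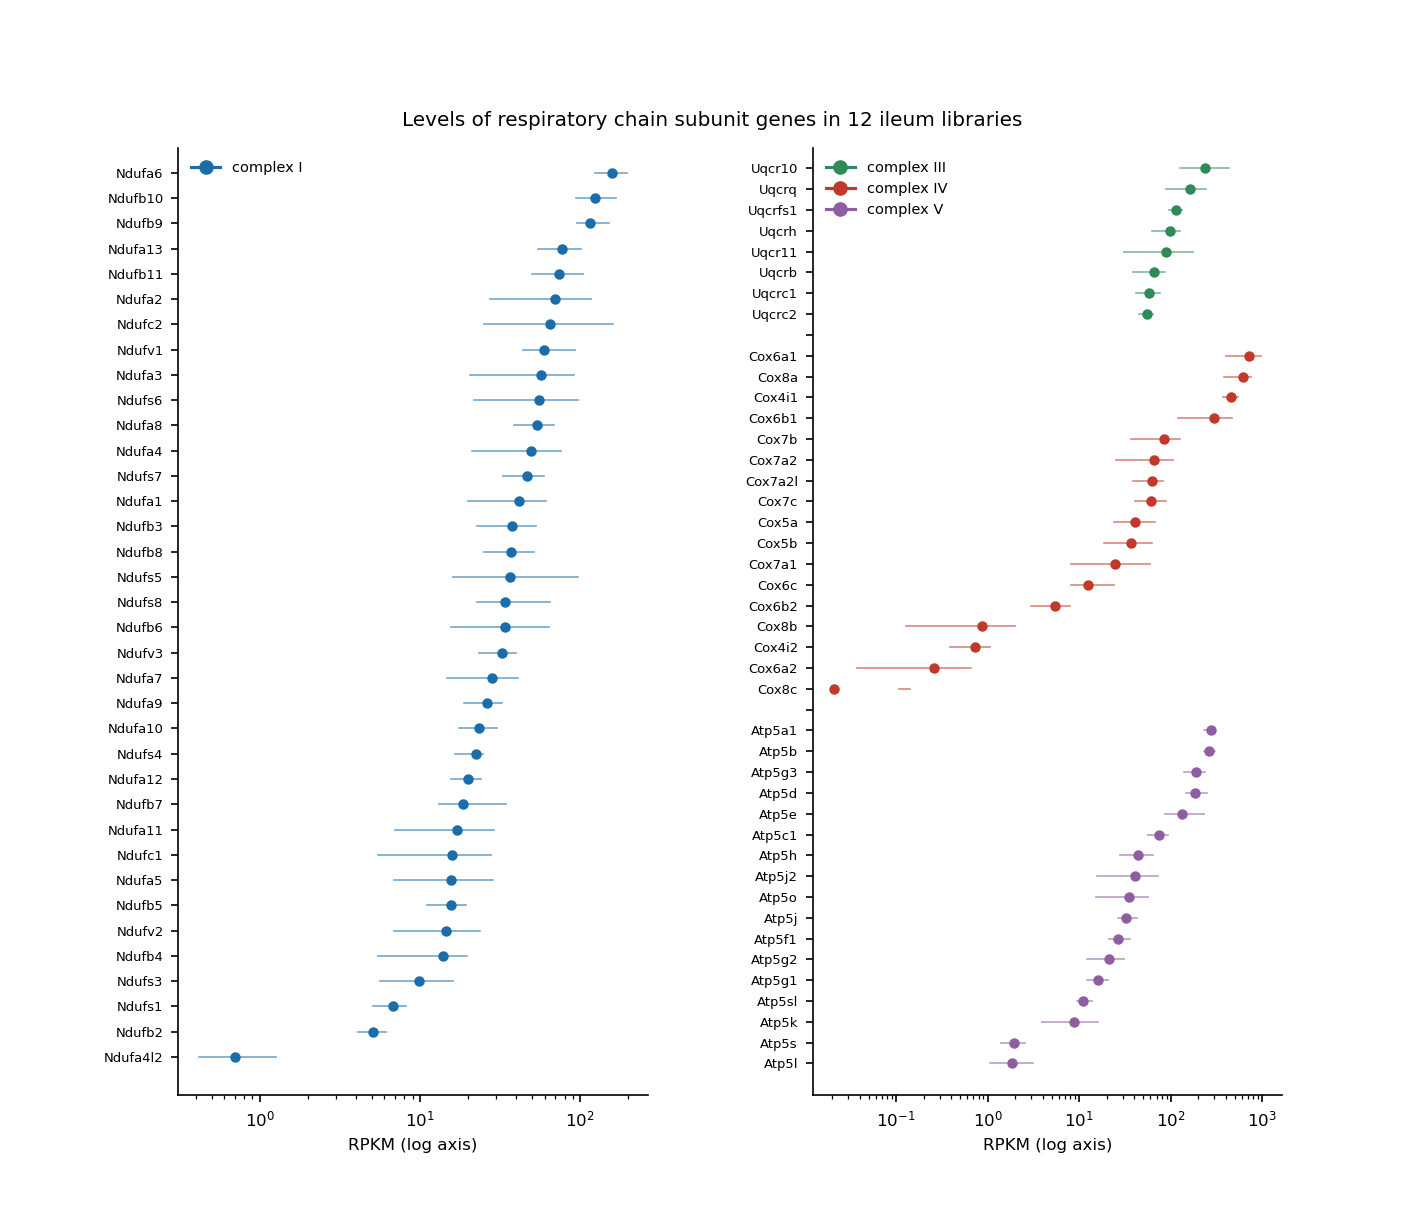
Mean RPKM (points, log axis) of 78 genes over 12 ileum libraries, by complex, with lines from the lowest to the highest library above 0. Cox6a1 had the highest mean (707 RPKM), and Cox8c, at 0 in most libraries, the lowest.

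These levels depend on the gene length used. Low values were whole reads when RPKM was taken over the joined exons of all annotated isoforms. These were 8086 bases for Ndufs1 and 6443 for Atp5l, genes whose principal mRNA is 2661 and 544 bases long. If all reads came from the principal mRNA, the mean of Cox4i1 would be 911 and that of Cox6a1 869 reads per kilobase and per M reads, and Atp5l, subunit g of ATP synthase, would stand at 21.8 in place of 1.84. Order between genes is therefore a description of this table. Some reads may also have gone to copies. The pseudogene entry Uqcrh-ps1 had a mean of 112 RPKM beside 98.2 for Uqcrh, the hinge protein of complex III, and Atp5k-ps2 had 86.5 beside 8.88 for Atp5k, subunit e. Atp5l-ps1 stood at 26.9 RPKM, so that the levels of Uqcrh, Atp5k and Atp5l are uncertain. The gene spans of 30 members overlap another annotated gene, and how the counting treated strand is not given in the sources used here.

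Where a subunit has tissue forms, the ileum used the general form. Cox4i2, the lung form, stood at 0.0979% to 0.254% of Cox4i1. Cox6a2, the heart and muscle form, was at most 0.0675% of Cox6a1, and Cox8b, also a muscle form, at most 0.312% of Cox8a. The testis form Cox6b2 made 1.14% to 5.38% of Cox6b1, and Ndufa4l2 0.550% to 3.20% of Ndufa4. Cox7a1 was the exception. Its level was 19.9% to 70.1% of that of Cox7a2, with group values of 29.8% ± 4.04 in HF_Sugar, 52.6% ± 16.5 in HF, 29.6% ± 8.50 in NF_Sugar and 35.9% ± 2.97 in NF (mean ± SD, n = 3 each). Beside this, the 12 smooth muscle markers summed to 741 to 1309 RPKM in HF_Sugar, 867 to 957 in HF, 777 to 1753 in NF_Sugar and 849 to 1309 in NF, and the 11 striated muscle markers to 14.6 to 25.5 RPKM in HF_Sugar, 11.6 to 18.8 in HF, 20.7 to 27.5 in NF_Sugar and 17.6 to 26.2 in NF. Their part in the Cox7a1 level was not tested. The 3 genes for the same c-ring subunit of ATP synthase were unequal, with Atp5g3 at 79.1% to 87.9% of their sum, Atp5g2 at 6.31% to 12.7% and Atp5g1 at 5.75% to 8.28%.

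The split between the 4 libraries and the other 8 took a median of 56.9% of a subunit gene's variance, and the diet groups 10.6%, against 14.8% and 20.3% over all tested genes. Grouping 12 libraries into 4 diet groups takes a larger share without any effect than a single split does. The shares of split and diet are thus not on a like footing, and the diet shares do not measure an effect of diet. After scaling by trimmed mean of M values (TMM), 68 of 77 genes were lower on average in the 4 libraries that stood apart than in the other 8, and 9 were higher. The median difference was -0.48 on the log2(RPKM + 1) scale, against 0.01 over all tested genes. Without scaling it was -0.56 (74 lower, 3 higher), against -0.04. For 44 members (57.1%) all 4 libraries lay below all of the other 8 in unscaled RPKM, as did 9.57% of all tested genes. The genes share each library, so these counts describe 12 libraries and carry no test. The split was found on other genes, and it puts 1 mouse of each diet on its lower side.

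Uqcr11, the smallest complex III subunit, showed the largest such difference (-1.53). It stood at 101, 30.6 and 90.5 RPKM in HF_Sugar, 157, 38.2 and 100.3 in HF, 43.2, 112 and 94.6 in NF_Sugar and 100.1, 34.8 and 174 in NF. In each group 1 library was far below the other 2, and it was the library that stood apart. These genes are named because of this difference. Atp5j2, subunit f of ATP synthase (-1.50), Ndufs6, an accessory complex I subunit (-1.46), Cox7a1 (-1.40) and Cox6b1, which bridges the monomers of the complex IV dimer (-1.37), followed the same pattern. Cox7a1 was at 31.7, 8.12 and 19.9 RPKM in HF_Sugar, 59.1, 9.51 and 39.1 in HF, 11.1, 16.5 and 25.8 in NF_Sugar and 24.1, 12.1 and 41.5 in NF, and Cox7a2 (-1.24) at 94.0, 31.7 and 66.1 RPKM in HF_Sugar, 84.4, 25.5 and 77.5 in HF, 33.4, 82.6 and 72.2 in NF_Sugar and 68.2, 36.5 and 106 in NF. For both genes the 4 low libraries are again the same ones, with no overlap between them and the other 8. Not all subunits took part. The F1 head genes Atp5a1 and Atp5b differed by 0.05 and 0.00, Cox4i1 by -0.02 and Uqcrfs1 by 0.01. Atp5b ranged only over 233 to 307 RPKM. Cox7a2l went the other way (0.36), with 38.7, 59.4 and 57.8 RPKM in HF_Sugar, 74.7, 67.2 and 59.3 in HF, 82.3, 46.8 and 47.5 in NF_Sugar and 63.5, 71.6 and 81.0 in NF.

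**Figure D2:**
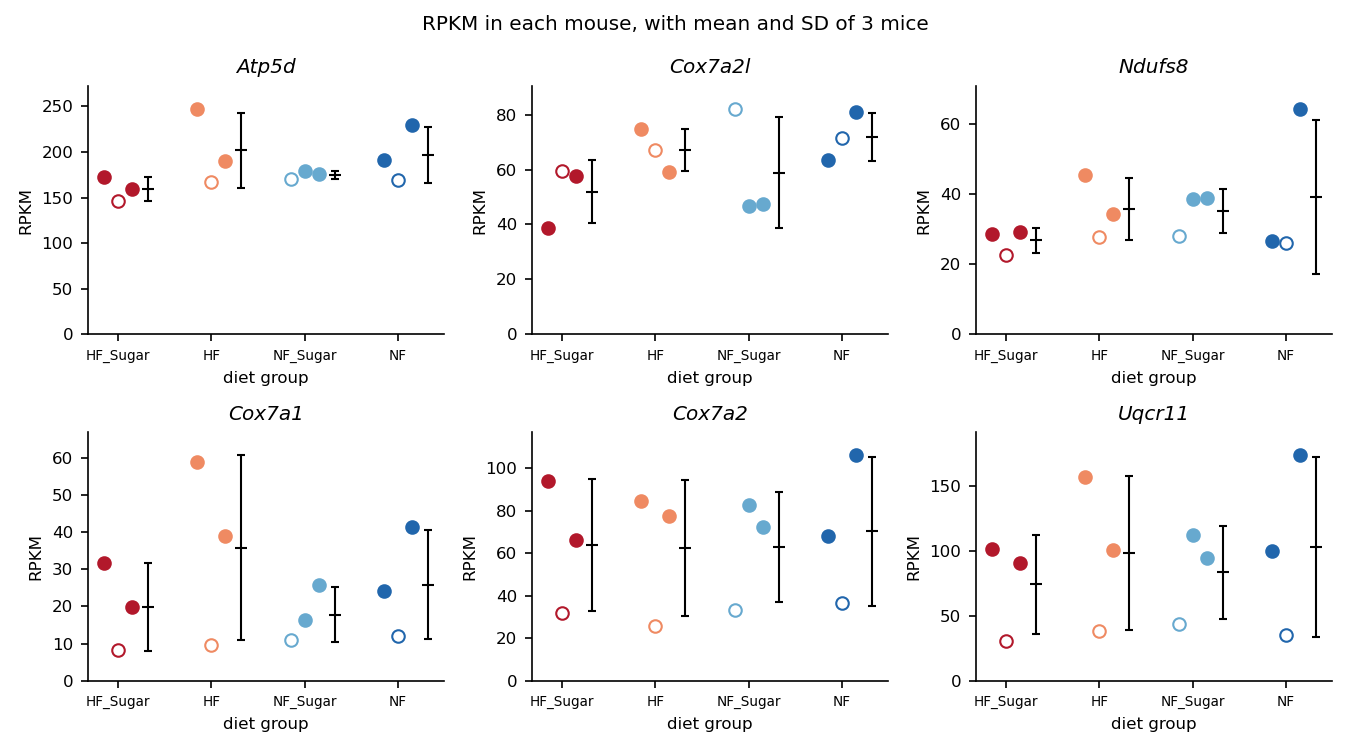
RPKM (vertical axes, from 0) of 6 genes in each mouse by diet group, with open circles for the 4 libraries that stand apart and black marks for mean ± SD of 3 mice. For Uqcr11, Cox7a1 and Cox7a2 the open circle is the lowest point of its group in all 4 groups, while for Cox7a2l it is the highest in HF_Sugar and NF_Sugar.

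By complex, the median difference of the 4 libraries from the other 8 was -0.48 for complex I (36 of 37 lower), -0.61 for complex III (7 of 8), -0.58 for complex IV (13 of 15) and -0.20 for complex V (12 of 17). Among genes of related function, the 5 tested electron carriers and acyl carrier differed more (median -0.66, 5 of 5 lower) and the other lists less. The median was -0.27 for the 13 subunits encoded by mitochondrial DNA, -0.17 for 43 assembly factors, -0.16 for the 4 subunits of complex II, -0.02 for 12 regulators of mitochondrial biogenesis and -0.01 for 14 enzymes of the citrate cycle. The 88 tested cytosolic ribosomal proteins, which have no part in respiration, differed more (-0.83, 83 lower). Unlike the members, the tested genes of these other lists and of the marker lists were among those that set the split. Their differences across it are thus partly built in. Of the 13 enterocyte markers, 7 were lower and 6 higher in the 4 libraries, with a median of -0.04. Their sums overlapped between the sets of libraries, at 8078 to 8892 RPKM in the 4 and 6835 to 19550.2 in the other 8. Among the lower markers, Fabp6 did not overlap, at 2415 to 2677 RPKM in the 4 and 2926 to 9713 in the other 8 (log2 difference -1.09). The 4 tested red blood cell markers had a median of -0.41 (3 lower, 1 higher). All 5 such markers summed to 29.9 to 55.3 RPKM in the 4 libraries and 30.5 to 92.6 in the other 8. Medians were -0.15 for white adipocytes (5 lower, 1 higher), -0.08 for leukocytes (4 and 2) and -0.05 for smooth muscle (7 and 5). They were -0.02 for striated muscle (3 and 2), 0.11 for pericytes (0 and 5) and 0.14 for brown adipocytes (1 and 2). Pancreatic acinar markers summed to 28.2 RPKM in HF replicate 2 (Ctrb1 at 8.48) and to at most 5.70 in any other library. Their lowest sum, 1.41 RPKM, was also in 1 of the 4 libraries. The part of these cells in the low values was not tested. The member genes were lowest of all 12 libraries most often in HF replicate 2 (39 of 77) and HF_Sugar replicate 2 (21), and highest most often in HF replicate 1 (23), HF_Sugar replicate 1 (17) and NF replicate 3 (14).

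**Figure D3:**
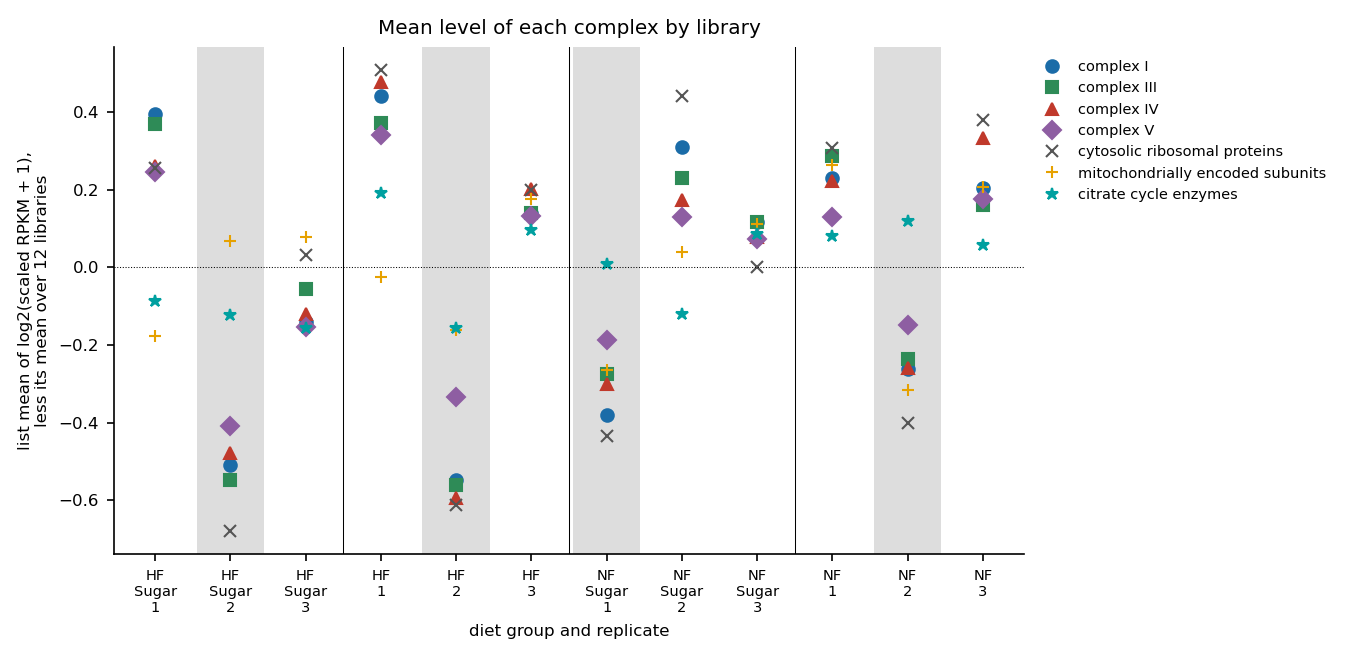
Mean log2(scaled RPKM + 1) of the tested genes of each complex and of 3 related lists in each library (horizontal axis, by diet group and replicate), less the mean of the list over 12 libraries. Grey bands mark the 4 libraries that stand apart, in which complexes I, III, IV and V and the ribosomal proteins all lie below 0.

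Short genes differed most. Of the 76 tested members with an annotated coding length, 22 had at most 300 bases, and their median difference between the 4 libraries and the other 8 was -0.98. It was -0.40 for 36 genes of up to 600 bases, -0.34 for 10 of up to 1200 bases and -0.27 for 8 longer ones. Other protein-coding genes of the same classes had medians of -0.17, -0.09, 0.00 and 0.05, so that members were lower than other genes in each class. These classes match coding length and not level. The members' median was 40.7 RPKM, against 3.33 RPKM over all tested genes, and adding 1 before the log shrinks differences of low genes. The part of level was not tested. Over genes, Spearman's rho between coding length and this difference was 0.49 for the members and 0.26 for all 12162 protein-coding genes with a length, while with GC content of the mRNA it was 0.04 and -0.09. Genes are not independent replicates and share each library's depth. At least 2-fold lower values (log2 -1 or less) were found for 19 members (24.7%) and for 3.83% of all genes. The part of the share of reads in genes and of coding length in these differences was not tested.

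**Figure D4:**
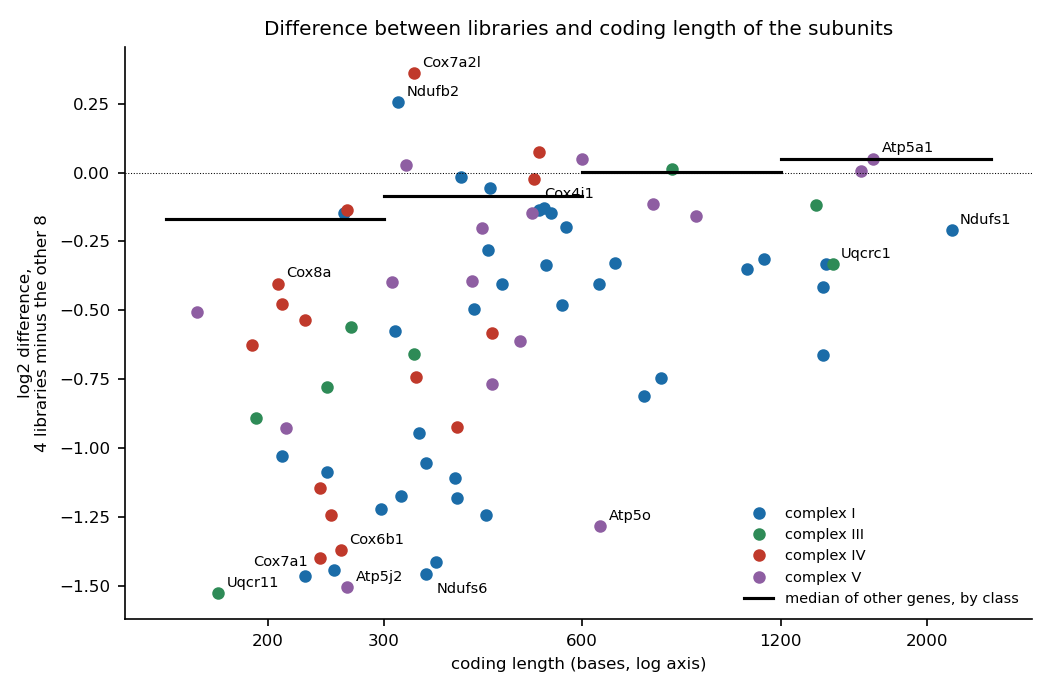
Log2 difference between the mean of the 4 libraries that stand apart and that of the other 8 (vertical axis) against coding length (horizontal axis, log scale) for 76 genes, coloured by complex, with black lines for the median of other protein-coding genes in 4 length classes. Uqcr11 is lowest (-1.53) and Cox7a2l highest (0.36).

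The comparison of HF_Sugar with NF asked how fat and sugar together bear on the ileum. Most subunit genes were slightly lower in HF_Sugar, but none passed the test. Of the 77 genes, 64 were lower and 13 higher, with a median log2 difference of -0.16, against -0.01 over all 17662 tested genes. limma on log2(RPKM + 1), with Benjamini-Hochberg adjustment over all genes at 0.05, called 0 members and 0% of all genes. At an unadjusted p under 0.05 it gave 0 members and 792 of all genes, and limma-voom on reads recovered from the RPKM called 0 members, with 2 at an unadjusted p under 0.05. limma-voom took only genes with a unique GENCODE match, which left out Atp5sl. In this and every other comparison below, it called 0 of the genes it took. Its counts over all genes at an unadjusted p are not given here. All 4 complexes had medians below 0: -0.18 for complex I, -0.12 for complex III, -0.20 for complex IV and -0.16 for complex V. The standard error of a single gene's difference had a median of 0.29 (range 0.11 to 0.69). Without the 4 libraries that stand apart the median was -0.16. It ranged from -0.33 without HF_Sugar replicate 1 to -0.01 without HF_Sugar replicate 2.

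Atp5d and Cox7a2l came closest to the threshold. Atp5d, the F1 delta subunit (chr10:80138632-80145818, build GRCm38), was at 173, 146 and 159 RPKM in HF_Sugar mice and 191, 169 and 229.5 RPKM in NF mice, with 2 of the HF_Sugar values below all NF values. Its means were 159 ± 13.2 RPKM in HF_Sugar and 197 ± 30.6 RPKM in NF (SD, n = 3 each), a log2 difference of -0.35 ± 0.16 (SE) with a limma adjusted p of 0.96. Cox7a2l was at 38.7, 59.4 and 57.8 RPKM in HF_Sugar mice and 63.5, 71.6 and 81.0 RPKM in NF mice. Here the groups did not overlap, and the log2 difference was -0.54 ± 0.25 (limma adjusted p = 0.96). Without the 4 libraries it was -0.62. Ndufs8, an iron-sulfur subunit of complex I, was at 28.6, 22.7 and 29.1 RPKM in HF_Sugar mice and 26.8, 26.1 and 64.6 RPKM in NF mice, with 1 NF mouse far above the other 5 and a difference of -0.47 ± 0.28. The next genes were Atp5h, a stator subunit (-0.48 ± 0.29), Cox5a (-0.47 ± 0.29), a complex IV subunit on the matrix side, and Ndufs7 (-0.32 ± 0.21). In complex III the smallest p belonged to Uqcrh (-0.25 ± 0.28) and next to the core protein Uqcrc1 (-0.15 ± 0.21). Adjusted p-values of these genes were 0.96 to 0.976. The 3 HF_Sugar libraries lay wholly below the 3 NF libraries in unscaled RPKM for 2 members, Cox7a2l and Ndufb5 (2.60%), and above them for 0, beside 2.97% and 7.21% of all genes. For Ndufb5 the nearest values were 15.6665 RPKM in HF_Sugar replicate 1 and 15.6692 RPKM in NF replicate 3. Division by the TMM scales of these libraries (0.99964 and 1.1008) reverses their order, so the scaled values overlap.

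Fat without sugar, in HF against NF, gave small differences in both directions. The median log2 difference was -0.06 with 49 genes lower and 28 higher, and it was 0.03 for complex V and -0.15 for complex IV. limma called 0 members and 0% of all genes, with 0 members and 662 genes at an unadjusted p under 0.05, and limma-voom called 0 members (0 unadjusted). Ndufs4, an accessory complex I subunit needed for its assembly, was at 21.1, 16.5 and 24.1 RPKM in HF mice and 24.3, 24.6 and 22.8 RPKM in NF mice (-0.27 ± 0.16, limma adjusted p = 1), with HF replicate 2 lowest and the groups overlapping. Cox6b2 was at 6.68 ± 1.14 RPKM in HF and 4.67 ± 1.52 RPKM in NF (SD, n = 3 each; 0.42 ± 0.30). Without HF replicate 2 the median of all members was 0.18, and without the 4 libraries 0.05. In unscaled RPKM, groups did not overlap for Atp5s and Atp5sl, both higher in HF (2.60% of members, beside 5.37% of all genes). Members lower throughout numbered 0, beside 2.97%. Atp5s was at 2.16 RPKM in HF replicate 3 and 1.98 RPKM in NF replicate 1. Division by the TMM scales of these libraries (1.0267 and 0.93435) reverses this order, so its scaled values overlap.

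Sugar without added fat, in NF_Sugar against NF, likewise gave small differences in both directions. The median log2 difference was -0.07 (48 lower, 29 higher). limma called 0 members and 0% of all genes, with 0 members and 329 genes at an unadjusted p under 0.05, and limma-voom called 0 members (0 unadjusted). Ndufa4l2 was at 0.614, 1.27 and 0.838 RPKM in NF_Sugar mice and 0.586, 0.465 and 0.756 RPKM in NF mice (0.24 ± 0.15), and the ranges overlapped. Cox7a2l was at 58.9 ± 20.3 RPKM in NF_Sugar and 72.0 ± 8.75 RPKM in NF (SD, n = 3 each), with a difference of -0.34 ± 0.25 that was -0.59 without the 4 libraries. Atp5s and Ndufa8 were lower in all 3 NF_Sugar libraries in unscaled RPKM (2.60% of members, beside 2.64% of all genes). Members higher throughout numbered 0, beside 3.22%. Atp5s was at 1.71 RPKM in NF_Sugar replicate 1 and 1.93 RPKM in NF replicate 3. Division by their TMM scales (0.94183 and 1.1008) reverses this order, so its scaled values overlap. The median of the members turned to 0.11 without NF_Sugar replicate 1.

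Adding sugar to the high-fat diet, in HF_Sugar against HF, gave a median log2 difference of -0.10 (59 lower, 18 higher), with 16 of 17 complex V genes lower (median -0.13). limma called 0 members and 0.00566% of all genes (1 gene). limma-voom called 0 members (0 unadjusted) among those it took, which leave out Atp5sl. At an unadjusted p under 0.05, limma gave 1 member and 777 genes. That member was Atp5sl, no subunit itself, at 9.36, 9.95 and 11.1 RPKM in HF_Sugar mice and 13.9, 12.4 and 12.2 RPKM in HF mice, without overlap (-0.32 ± 0.11, limma adjusted p = 1). Atp5c1, the rotor subunit gamma, did not overlap either, at 80.6, 56.7 and 69.3 RPKM in HF_Sugar mice and 84.3, 81.7 and 83.7 RPKM in HF mice (-0.29 ± 0.16). These 2 genes were 2.60% of members, beside 5.15% of all genes, and 0 members were higher throughout, beside 4.69%. Ndufb11, a membrane-arm subunit of complex I, was at 62.0 ± 9.05 RPKM in HF_Sugar and 84.7 ± 20.8 RPKM in HF (SD, n = 3 each; -0.43 ± 0.22). The median of the members was 0.07 without HF replicate 1 and -0.18 without the 4 libraries.

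With sugar in both arms, HF_Sugar against NF_Sugar gave a median of -0.10 (60 lower, 17 higher), which turned to 0.02 without HF_Sugar replicate 2. limma called 0 members and 0% of all genes, with 0 members and 303 genes at an unadjusted p under 0.05, and limma-voom called 0 members (0 unadjusted). Atp5s, the coupling factor, was at 1.72, 1.86 and 2.56 RPKM in HF_Sugar mice and 1.71, 1.51 and 1.38 RPKM in NF_Sugar mice (0.22 ± 0.11, limma adjusted p = 1). In unscaled RPKM, Atp5s and Uqcrfs1 were higher in all 3 HF_Sugar libraries (2.60% of members, beside 4.29% of all genes). Ndufb9 was lower (1.30%, beside 1.64%). For Atp5s, division by the TMM scales of HF_Sugar replicate 1 (0.99964) and NF_Sugar replicate 1 (0.94183) reverses their order, so its scaled values overlap. The comparisons share groups with each other, so their values are not independent.

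Pooling did not bring out a change. Fat over both drinks gave a median of -0.08 and sugar over both diets -0.09. Without HF replicate 2 the median for fat was 0.04, and it was also above 0 without HF_Sugar replicate 2, while without HF replicate 1 that for sugar was 0.01. In each, limma called 0 members and 0% of all genes, with 1 member each at an unadjusted p under 0.05 (466 and 656 genes in all). limma-voom called 0 members in either, with 0 and 2 at an unadjusted p under 0.05. Atp5sl was not in that fit. All 8 complex III genes were lower with fat, by 0.02 to 0.17 on the log2 scale and none past the test. No member's 6 libraries lay wholly above or below the other 6. These counts of 0 stand beside 0.125% (higher) and 0.0113% (lower) of all genes with fat, and 0.034% and 0.051% with sugar. The member with fat was Atp5s (0.19 ± 0.08, limma adjusted p = 1), and with sugar Atp5sl (-0.20 ± 0.07, limma adjusted p = 0.999). Cox7a2l differed by -0.36 ± 0.18 (55.4 RPKM with sugar and 69.5 RPKM without, means of 6 mice). The difference in the effect of sugar between the fat diets, tested as an interaction, had a median of -0.03, which turned to 0.16 without HF_Sugar replicate 2. limma called 0 members and 0% of all genes, with 0 members and 449 genes at an unadjusted p under 0.05, and limma-voom called 0 members (0 unadjusted). Ndufb11 had the smallest p among complex I genes (-0.55 ± 0.31) and Cox6b2 among complex IV genes (-0.62 ± 0.42).

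**Figure D5:**
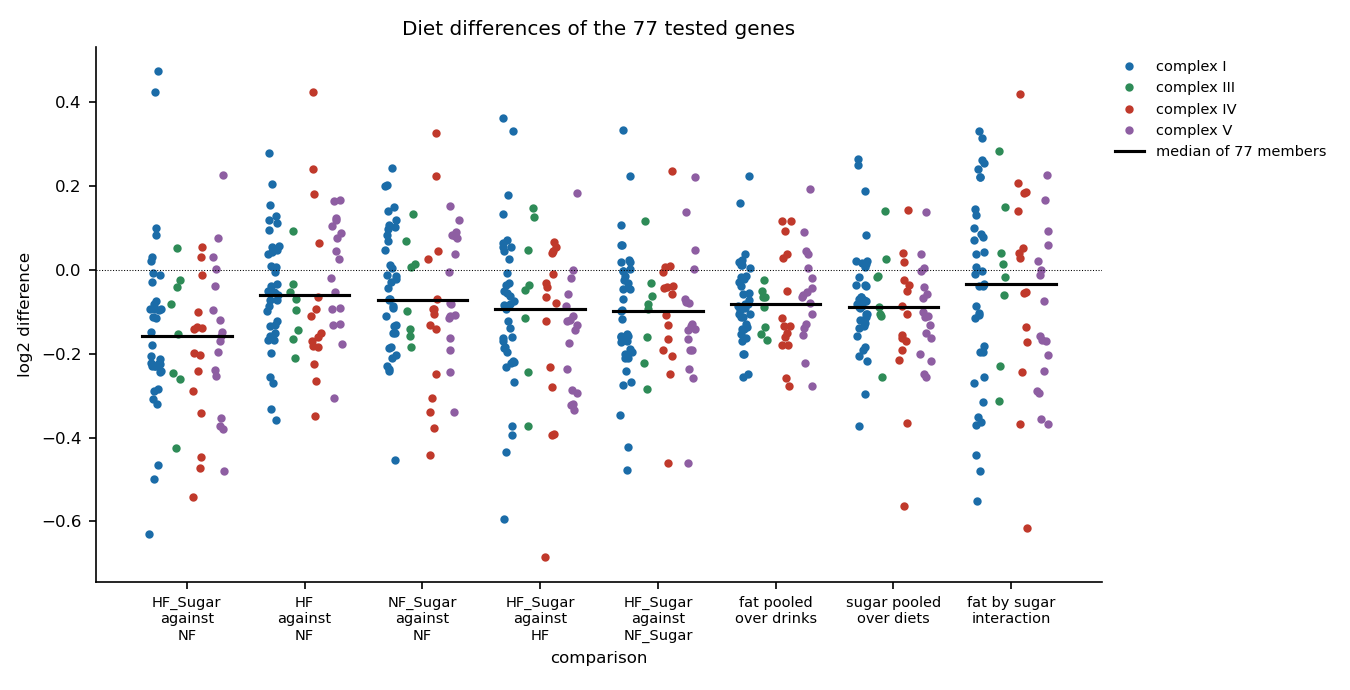
Log2 differences of the 77 tested genes (points, coloured by complex) in 8 comparisons (horizontal axis), with black lines for their median. Medians lie between -0.16 (HF_Sugar against NF) and -0.03 (interaction), and no gene passed the test in any comparison.

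Other genes of the pathway were not called either. In HF_Sugar against NF, where limma called 0% of all genes, the 43 assembly factors had a median of -0.09 (31 of 43 lower) and the 14 citrate cycle enzymes -0.22 (13 of 14 lower). The 13 mitochondrially encoded subunits had a median of -0.03, the 4 subunits of complex II -0.08, the 5 tested electron carriers, with cytochrome c (Cycs) among them, -0.03 and the 12 biogenesis regulators, Ppargc1a and Tfam included, 0.05. The 88 ribosomal proteins had -0.24 (73 of 88 lower), against -0.16 for the respiratory chain genes. Of the markers of other cells, the 13 of ileal enterocytes had a median of -0.15 and the 12 of smooth muscle -0.30, the 6 of white adipocytes -0.57 (6 of 6 lower), the 5 of pericytes -0.21 and the 5 tested of striated muscle -0.18. The 6 of leukocytes had 0.29 (5 higher, 2 at an unadjusted p under 0.05 and 0 called), the 3 of brown adipocytes 0.23 and the 4 of red blood cells 0.05. Enterocyte markers had summed levels of 8078 to 15152 RPKM in HF_Sugar and 8704 to 17182 in NF, white adipocyte markers 11.7 to 39.6 in HF_Sugar and 19.5 to 91.6 in NF, and leukocyte markers 94.0 to 190.1 in HF_Sugar and 97.6 to 125 in NF. Their part in the small differences of the subunits was not tested.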

How the data were processed

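RNA libraries of 12 ilea were run on an Ion Proton sequencer and aligned to mm10 by the authors (STAR within Partek Flow), with quantification against Ensembl transcripts. The values they deposited are RPKM, in 1 table and 12 single-sample files that repeat its columns. Of 44231 rows, 26 named no gene and were left out (0.135% of the RPKM sum in the highest library). The number of unmapped columns was 0. Gene models (GRCm38) came from GENCODE and named 78 of the 79 members. Total reads were worked out from the smallest RPKM steps, and 88.5% to 90.3% of low values then came out whole (tolerance 0.03 reads).

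RPKM was scaled by TMM, which removes differences in composition between libraries, and log2(RPKM + 1) was computed and fitted with limma 3.58.1 in R 4.3.3 over 17662 genes (minimum 0.5 RPKM, 3 libraries). The fit held all 12 libraries and 4 group means, with 8 residual degrees of freedom. Its p-values set each difference against the spread between libraries within a group, with 1 library per mouse. That spread includes the split between the 4 libraries that stand apart and the other 8, which the main fit did not model. The script was tested on simulated data. Members, lists and tests were chosen with earlier results of these data known. Named genes were the core subunits and isoforms, the highest and lowest of each complex, those with the smallest p in each complex and comparison (3 for HF_Sugar against NF) and those with the largest and smallest spread. Uqcr11, Atp5j2, Ndufs6, Atp5j, Atp5k, Ndufa11, Ndufb5 and Ndufb9 fall outside this rule and were chosen after their values or sequences were seen. Sequences were handled in Python 3.11.15 with Biopython 1.88.

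To check for pairing, deviations from the group mean were correlated for libraries with equal replicate numbers. All 3 correlations passed 0.1 for HF_Sugar with HF (0.487, 0.557 and 0.131) and for HF_Sugar with NF (0.188, 0.511 and 0.214), and not for the other pairs of groups. The library that stands apart is replicate 2 in HF_Sugar, HF and NF, and replicate 1 in NF_Sugar. Replicate 2 of HF with NF gave 0.555. With NF_Sugar, the values of replicates 1 and 2 lay between -0.461 and -0.121. The part of this split in the correlations was not tested. The labels name no shared litter or cage. Values of 1 member are not reported here by name. Alternatives were other scalings, filters, pseudocounts, sample sets and tests.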

Additional observations from a re-analysis of the deposited data

How the results depend on the processing

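No member was called by limma in any of the 8 comparisons under any of the 26 alternatives run: other scalings, filters and pseudocounts, the replicate block, the library cluster as a covariate, the compared groups alone (pairs only), protein-coding genes alone, irregular values, the study's thresholds, each library left out, the 4 libraries left out, and limma-voom, which was chosen after seeing the data. Of these, the irregular values (found in 0 members) and the study's stricter thresholds could not have called a member. limma-voom, which did not take Atp5sl, called 0 of the genes it took in all 8 comparisons. limma called 0 of all genes without the 4 libraries, with the library cluster and with the replicate block. Unscaled RPKM gave 1 gene for HF_Sugar against HF and 0 elsewhere. Shares of all genes under the other alternatives are not given here. Leave-one-out medians of the members ran from -0.33 to -0.01 for HF_Sugar against NF, -0.25 to 0.18 for HF against NF, -0.19 to 0.11 for NF_Sugar against NF, -0.32 to 0.07 for HF_Sugar against HF, -0.30 to 0.02 for HF_Sugar against NF_Sugar, -0.17 to 0.04 for fat, -0.21 to 0.01 for sugar and -0.25 to 0.16 for the interaction. All but the first thus changed sign with 1 library, and the cause was not tested. The libraries whose loss turned the sign were HF replicate 2 and NF replicates 1 and 3 (HF against NF), NF_Sugar replicate 1 and NF replicates 1 and 3 (NF_Sugar against NF), HF_Sugar replicate 2 and HF replicate 1 (HF_Sugar against HF), HF_Sugar replicate 2 (HF_Sugar against NF_Sugar), HF_Sugar replicate 2 or HF replicate 2 (fat) and HF replicate 1 (sugar), and HF_Sugar replicate 2, HF replicates 1 and 3, NF_Sugar replicates 2 and 3 and NF replicate 2 (interaction). Outside leave-one-out, a median changed sign only for HF against NF (-0.07 to 0.05).

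With the replicate number as a block, 0 members were called. Each replicate number occurs once in each group, so the block changes p-values and leaves the differences as they are. The medians, -0.16 for HF_Sugar against NF and -0.10 for HF_Sugar against HF, were thus bound to stay the same. They do not bear on pairing. Of 1012 values of 40 named gene differences, 987 kept their sign within 1 SE and 25 moved further or turned. The replicate block, the library cluster, the irregular values and the study's thresholds leave the differences themselves unchanged. Their values among the 987 are thus the main values again. With 3 mice a group and a median SE of 0.29, differences of the size of these medians could not be detected for a single gene.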
